A study of Mus musculus with 12 samples.

Results

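Activity-dependent immediate early genes are the first genes transcribed when a neuron is strongly stimulated. The 10 genes described here were taken by name, and all 10 of the 10 were found among the 23354 gene symbols measured and passed the filter on low values that left 14075 symbols for testing. They are Fos, Fosb and Junb, which encode subunits of the AP-1 transcription factor; Egr1, Egr2 and Egr4, zinc finger transcription factors of the early growth response family; Npas4, a basic helix-loop-helix factor; Nr4a1, an orphan nuclear receptor; Ier2, a nuclear regulatory protein; and Arc, which encodes a cytoskeleton-associated protein of dendritic spines.

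Poly(A) RNA was sequenced from the cortex of 12 C57BL/6 mice, 3 in each of 4 groups, at postnatal day 16. The Dnmt1 CKO mice were Olig1cre/+;Dnmt1flox/flox and their littermate controls Olig1+/+;Dnmt1flox/flox. The Dnmt3a CKO mice were Olig1cre/+;Dnmt3aflox/flox and their littermate controls Olig1+/+;Dnmt3aflox/flox. Dnmt1 maintains DNA methylation through replication and Dnmt3a sets it de novo, and the comparison of each CKO with its controls asks how loss of the enzyme alters expression in the cortex. All 12 mice were homozygous for the floxed allele of their line, and only the CKO mice carried cre. The cre stands in place of 1 Olig1 allele and is driven from a gene of the oligodendrocyte lineage, whereas the libraries were made from RNA of the whole cortex, so that a change in few cells and a small change in many cells cannot be told apart, nor can fewer cells of a type and less RNA per cell.

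Transcription of these genes starts within minutes of depolarization and needs no newly made protein. Calcium entry and the MAP kinase cascade activate transcription factors that are already bound near the genes, chiefly CREB at cyclic AMP response elements and the serum response factor at CArG boxes. The transcripts are short-lived, so in the cortex their levels are widely read as a record of recent neuronal activity. Their products then switch on later genes or, in the case of Arc, act directly at synapses.

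The promoters of 4 of the genes are shown because activity is known to act on such genes through short promoter elements, and 7 of the 10 genes had an entry in the RefSeq promoter table used (assembly GRCm38.p6). Each line gives the 250 bases before a RefSeq transcription start (for Egr2, 1 of 5 in the table), 5′ to 3′ on the strand of the gene. Capitals mark the core of the CREB site (TGACG, or CGTCA where it lies on the other strand) and a TATA box (TATAAA on the strand of the gene). They also mark a CArG box (CCWWWWWWGG, where W is A or T). Fos lies at chr12:85473640-85473889 on the plus strand, Egr2 at chr10:67537619-67537868 on the plus strand, Npas4 at chr19:4989972-4990221 on the minus strand and Nr4a1 at chr15:101266596-101266845 on the plus strand.
Fos promoter: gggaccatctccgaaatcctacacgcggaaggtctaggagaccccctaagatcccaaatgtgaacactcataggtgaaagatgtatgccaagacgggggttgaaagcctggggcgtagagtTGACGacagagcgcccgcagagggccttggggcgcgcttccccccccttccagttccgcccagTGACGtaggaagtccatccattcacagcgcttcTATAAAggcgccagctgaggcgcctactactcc
Egr2 promoter: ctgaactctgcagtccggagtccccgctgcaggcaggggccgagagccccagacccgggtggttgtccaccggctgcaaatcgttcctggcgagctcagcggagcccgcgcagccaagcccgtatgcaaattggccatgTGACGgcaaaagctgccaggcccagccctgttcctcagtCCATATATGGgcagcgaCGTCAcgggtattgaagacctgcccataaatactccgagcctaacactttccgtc
Npas4 promoter: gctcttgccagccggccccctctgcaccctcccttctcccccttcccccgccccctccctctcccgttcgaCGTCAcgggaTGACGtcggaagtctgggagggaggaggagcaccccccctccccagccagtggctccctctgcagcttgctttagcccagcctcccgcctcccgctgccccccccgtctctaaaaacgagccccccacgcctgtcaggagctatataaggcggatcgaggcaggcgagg
Nr4a1 promoter: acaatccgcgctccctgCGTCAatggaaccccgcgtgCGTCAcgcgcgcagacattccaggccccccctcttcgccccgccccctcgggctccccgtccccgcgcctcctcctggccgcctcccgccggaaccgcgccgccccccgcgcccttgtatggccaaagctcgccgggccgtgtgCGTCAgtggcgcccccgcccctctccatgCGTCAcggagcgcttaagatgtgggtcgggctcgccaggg

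Searched over 300 bases, 250 before and 50 after the start, each of the 7 promoters held the CREB core at least once. Nr4a1 held 4 copies, Fos, Egr2, Egr4 and Npas4 held 2 each, and Fosb and Junb held 1 each. The core is common, standing in 20.8% of the 32851 promoters of the same length in the table and in 29.9% of those of the genes tested, while 2 or more copies stood in 5.01% and 4 or more in 0.231%. The complete palindrome TGACGTCA, which contains the core, was in none of the 7 and in 1.79% of all promoters. In Egr2 the CArG box began 72 bases before the start, between CREB cores that began 111 and 55 bases before it. An exact CArG box was in 1.63% of all promoters and in no other of the 7, and boxes with a mismatch were not searched for. In Fos a TATA box began 33 bases before the start, and in Junb 1 began just after it, against 8.32% of all promoters. These matches are descriptions of the letters in these windows, and bases farther from the start were not searched. The start used for Nr4a1 lay 12577 bases inside the gene from the start of its longest coding transcript in the GENCODE annotation, that for Npas4 lay 345 bases from it, and for the other 5 the distance was at most 30 bases.

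In the GENCODE annotation of GRCm38 all 10 are protein-coding genes. The Fos gene spans chr12:85473890-85477273, Fosb chr7:19302696-19310051, Junb chr8:84974484-84978718, Egr1 chr18:34859823-34864984, Egr2 chr10:67535475-67542188, Egr4 chr6:85511121-85513589, Arc chr15:74669083-74672570, Npas4 chr19:4984355-4990316, Nr4a1 chr15:101254269-101274795 and Ier2 chr8:84661331-84662852. Exons of Junb overlap those of Prdx2 on the opposite strand, and the kit named in the labels is not stated to keep strand, so reads of the pair cannot be told apart there.

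The number of reads behind each library is unknown, but low values lie on steps that show what 1 read is worth, and relative depth read from these steps ran from 0.856 to 1 of the deepest library. Genes listed for cortical excitatory neurons, some of them shared with other neurons, were present in all 12. The summed level of the 10 listed was between 1575 and 1800 FPKM (fragments mapped per kilobase of a transcript, relative to all those mapped in the library). Dnmt1 was between 9.78 and 10.6 FPKM in the Dnmt1 controls and between 7.26 and 9.11 FPKM in the Dnmt1 CKO (limma, adjusted p = 0.29). Dnmt3a was between 13.6 and 15.4 FPKM in the Dnmt3a CKO (limma, adjusted p = 0.66) and reached 31.1 and 28.7 FPKM in replicates 1 and 3 of the controls. In the library labelled Dnmt3a control replicate 2 it was 16.9 FPKM, near the CKO libraries, while Olig1, which carries the cre, was at 49.8 FPKM there, against 48.4 and 44.1 FPKM in the other controls and 30.6 to 38.8 FPKM in the CKO. The calls of the 10 genes and of the gene lists are therefore also given without that library. The sum of 8 oligodendrocyte markers was between 544 and 635 FPKM in the Dnmt1 CKO against 1824 to 2128 FPKM in its controls, and its part in the results below was not tested.

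The 10 genes were spread over a wide range of levels. By the median FPKM of the 12 libraries, Egr1 was at 64.8, Arc at 38.6, Nr4a1 at 27.7, Junb at 16.2 and Fos at 12.5. Egr4 followed at 8.64, Ier2 at 5.32, Npas4 at 5.07, Egr2 at 2.58 and Fosb at 1.92. Within each library Egr1 stood above Arc, Nr4a1 above Junb and Junb above Fos. Arc stood above Nr4a1 in every library except Dnmt3a CKO replicate 2, and Fos above Egr4 except in Dnmt1 CKO replicate 1 and Dnmt3a CKO replicate 2. Ier2 and Npas4 changed places from library to library, as did Egr2 and Fosb, so these neighbours were not separated by more than their spread.

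**Figure D1:**
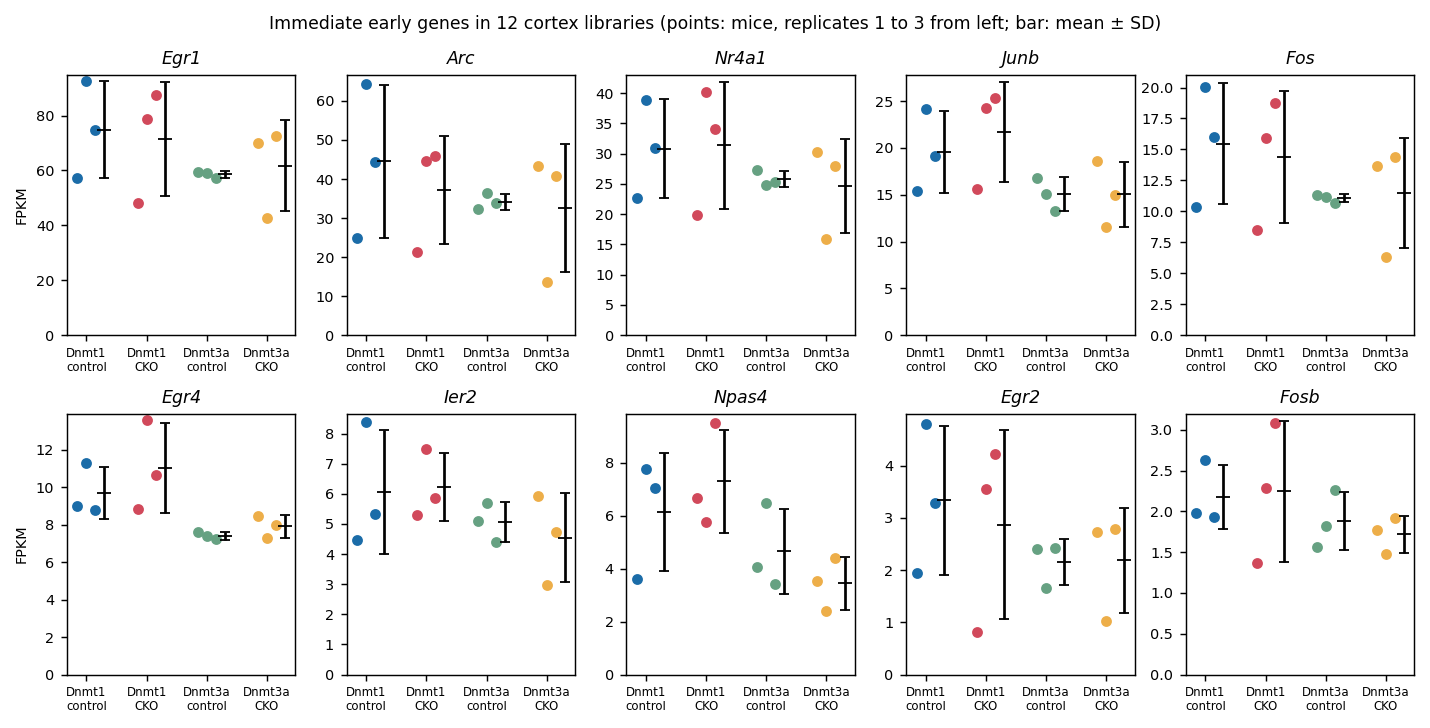
FPKM of each of the 10 genes in each mouse, with 1 point per library, the groups along the horizontal axis, and bars giving the mean ± SD of 3 mice. The points of CKO and control overlap for every gene in both lines, and the 3 Dnmt3a controls lie closest together for Egr1, Fos and Egr4.

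Fos, the AP-1 subunit most used to mark recently active neurons, was at 10.4, 20.1 and 16.0 FPKM in the Dnmt1 controls, replicates 1 to 3 in turn, against 8.49, 16.0 and 18.8 FPKM in the Dnmt1 CKO. The Dnmt3a controls had 11.3, 11.2 and 10.7 FPKM, and the Dnmt3a CKO 13.6, 6.34 and 14.4 FPKM. The groups overlapped in both lines, with the Dnmt3a controls close together and the other 3 groups spread widely. The difference of CKO from control was -0.13 on the log2 scale in the Dnmt1 line (95% interval -1.03 to 0.77; limma, adjusted p = 0.92) and -0.04 in the Dnmt3a line (95% interval -0.80 to 0.72; limma, adjusted p = 0.99).

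Junb, a partner of Fos in AP-1, was at 15.4, 24.2 and 19.1 FPKM in the Dnmt1 controls, against 15.6, 24.3 and 25.3 FPKM in the CKO. The Dnmt3a controls had 16.8, 15.1 and 13.2 FPKM, and the CKO 18.6, 11.6 and 14.9 FPKM. Its log2 differences were 0.14 (95% interval -0.45 to 0.73) and -0.02 (95% interval -0.46 to 0.42). Fosb, whose truncated product accumulates with repeated stimulation, was the lowest of the 10, between 1.36 and 3.09 FPKM. Its group means ± SD (n = 3) were 2.18 ± 0.393 and 2.24 ± 0.864 FPKM in the Dnmt1 controls and CKO, and 1.88 ± 0.357 and 1.72 ± 0.226 FPKM in the Dnmt3a controls and CKO.

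Egr1, a zinc finger factor that many stimuli induce in the cortex, was at 57.1, 92.5 and 74.7 FPKM in the Dnmt1 controls, against 48.0, 78.8 and 87.6 FPKM in the CKO. Levels in the Dnmt3a controls were 59.6, 59.0 and 57.1 FPKM, and in the CKO 70.1, 42.7 and 72.6 FPKM. Its libraries stood in nearly the same order as those of Fos. The log2 difference was -0.08 in the Dnmt1 line (95% interval -0.76 to 0.59) and 0.04 in the Dnmt3a line (95% interval -0.46 to 0.54).

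Egr2, whose promoter holds the CArG box shown above and which in the peripheral nerve also drives myelination by Schwann cells, varied most in proportion. It was at 1.94, 4.79 and 3.29 FPKM in the Dnmt1 controls, against 0.810, 3.56 and 4.22 FPKM in the CKO. The lowest library, Dnmt1 CKO replicate 1, thus belonged to the same group as the second highest. The log2 difference of -0.41 in the Dnmt1 line had a 95% interval from -2.04 to 1.21. The Dnmt3a controls had 2.39, 1.65 and 2.43 FPKM and the CKO 2.73, 1.03 and 2.79 FPKM, a log2 difference of -0.09 (95% interval -1.06 to 0.89).

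Egr4, a further zinc finger factor of the family, varied least. It was at 8.99, 11.3 and 8.79 FPKM in the Dnmt1 controls, against 8.84, 13.6 and 10.7 FPKM in the CKO. In the other line, 7.59, 7.40 and 7.22 FPKM were measured in the controls and 8.48, 7.29 and 7.98 FPKM in the CKO, so that the groups overlapped in both lines. Its intervals were the narrowest, with log2 differences of 0.17 (95% interval -0.26 to 0.61) in the Dnmt1 line and 0.09 (95% interval -0.07 to 0.25) in the Dnmt3a line.

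Npas4, which neurons induce after calcium entry and which adjusts their inhibitory synapses, was at 3.61, 7.75 and 7.05 FPKM in the Dnmt1 controls, against 6.65, 5.75 and 9.49 FPKM in the CKO. The Dnmt3a controls had 4.06, 6.48 and 3.42 FPKM, and the CKO 3.54, 2.40 and 4.40 FPKM. In Dnmt1 CKO replicate 1 and Dnmt3a control replicate 2 it was above its median while Fos was below its own. Egr4 in the former and Ier2 in the latter were also above their medians. In Dnmt3a CKO replicates 1 and 3 Npas4 was below its median while Fos was above its own. Fosb and Egr4 were also below their medians in both of these, and Junb and Ier2 in replicate 3. The log2 difference of Npas4 was 0.29 in the Dnmt1 line (95% interval -0.53 to 1.10) and -0.41 in the Dnmt3a line (95% interval -1.16 to 0.33). Without the library labelled Dnmt3a control replicate 2 the latter was -0.15.

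Nr4a1, the nuclear receptor with 4 CREB cores in its promoter, was at 22.6, 38.9 and 30.9 FPKM in the Dnmt1 controls, against 19.8, 40.1 and 34.1 FPKM in the CKO. Its mean ± SD (n = 3) was 30.8 ± 8.12 and 31.3 ± 10.4 FPKM in these groups, and 25.8 ± 1.34 and 24.7 ± 7.73 FPKM in the Dnmt3a controls and CKO. Ier2, induced with Fos by many stimuli, ranged from 2.98 to 8.39 FPKM, with log2 differences of 0.07 (95% interval -0.55 to 0.69) and -0.20 (95% interval -0.82 to 0.42).

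Arc, whose protein promotes removal of AMPA receptors from the synapse, was at 25.0, 64.2 and 44.5 FPKM in the Dnmt1 controls, against 21.3, 44.6 and 45.9 FPKM in the CKO. The Dnmt3a controls had 32.3, 36.4 and 33.8 FPKM and the CKO 43.3, 13.7 and 40.8 FPKM, so that 1 CKO library lay far below all controls while the other 2 lay above them. The log2 difference was -0.24 in both lines, with 95% intervals from -1.32 to 0.85 in each.

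None of the 10 genes differed between CKO and control in either line in limma's moderated test at a Benjamini-Hochberg false discovery rate of 10% over the 14115 rows tested. The background of called rows was 3.15% in the Dnmt1 line, with 120 rows higher and 324 lower, and 0.0142% in the Dnmt3a line, or 2 rows. Also at an unadjusted p under 0.05 the count was 0 of 10 in both lines, where 15% of all rows in the Dnmt1 line and 7.35% in the Dnmt3a line had such a p, and limma's adjusted p-values were at least 0.72 in the Dnmt1 line and at least 0.77 in the Dnmt3a line. Values of CKO and control overlapped for all 10 genes, whereas 20.8% of rows in the Dnmt1 line and 12.8% in the Dnmt3a line did not overlap. In exact two-sided permutation tests p lay between 0.3 and 1, and 3 mice against 3 cannot give less than 0.1. The median log2 difference of the 10 genes was -0.01 in the Dnmt1 line, against -0.02 over all rows, and -0.10 in the Dnmt3a line, against 0.01 over all rows. A p that misses the threshold does not show that groups are alike. Apart from Egr4, the narrowest 95% interval was that of Fosb in the Dnmt3a line, from -0.51 to 0.28, and the widest that of Egr2 in the Dnmt1 line.

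Single mice set the sign of many of these differences. Without Dnmt3a CKO replicate 2 the log2 difference in the Dnmt3a line moved from -0.04 to 0.34 for Fos, from -0.24 to 0.30 for Arc and from -0.12 to 0.17 for Nr4a1. Without Dnmt1 CKO replicate 1 the difference in the Dnmt1 line moved from -0.41 to 0.30 for Egr2 and from -0.13 to 0.21 for Fos. No gene passed the threshold in either case. Leaving out the library labelled Dnmt3a control replicate 2 left 0 of 10 genes called in the Dnmt3a line, with log2 differences from -0.26 for Egr2 to 0.09 for Egr4.

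Whether the CKO effect differed from line to line was asked with an interaction term fitted to all 12 libraries, and it was not called for any of the 10 genes, against a background of 2.13% of rows, and none had an unadjusted p under 0.05 in limma, where 10.6% of rows did. The estimate was largest for Npas4, at 0.70 on the log2 scale (95% interval -0.32 to 1.72; limma, adjusted p = 0.66), and 0.44 without the library labelled Dnmt3a control replicate 2.

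**Figure D2:**
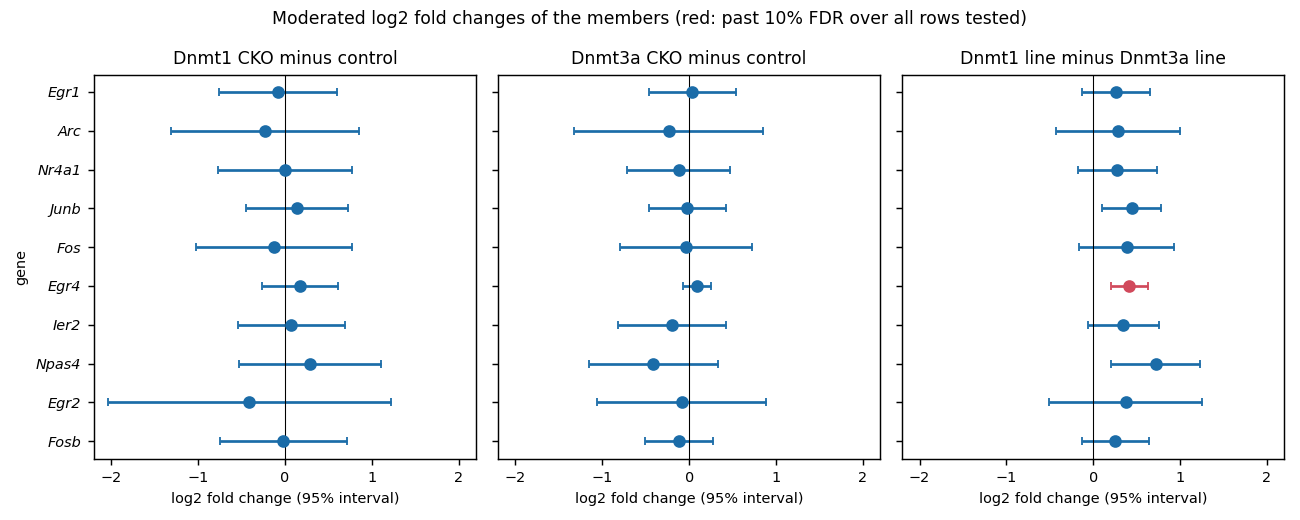
Log2 fold change of each gene with its 95% interval from limma, for Dnmt1 CKO minus control, Dnmt3a CKO minus control, and the 6 libraries of the Dnmt1 line minus the 6 of the Dnmt3a line. All intervals of the first pair of panels cross 0, and in the third panel all 10 genes lie above 0 with Egr4 past the 10% false discovery rate.

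The lines themselves were compared in a contrast chosen after the data were seen. The line cannot be told apart from breeding, litter, dissection and sequencing run, which the labels do not separate. All 10 genes had a higher mean in the 6 Dnmt1-line libraries than in the 6 Dnmt3a-line libraries, with log2 differences from 0.25 for Fosb to 0.72 for Npas4 and a median of 0.36, against 0.01 over all rows. The 10 are not independent, since their levels moved together from mouse to mouse. Only Egr4 passed the threshold (log2 difference 0.42, SE 0.097; limma, adjusted p = 0.038), against 6.18% of rows called, and it did not pass when the filter on low values was left out (adjusted p = 0.11). Its values lay between 8.79 and 13.6 FPKM in the Dnmt1 line and between 7.22 and 8.48 FPKM in the Dnmt3a line without overlap, which 1.77% of all rows also showed. Npas4 (log2 difference 0.72, limma adjusted p = 0.13) and Junb (0.44, limma adjusted p = 0.17) had unadjusted p-values under 0.05 only, so that 3 of 10 reached this level with Egr4, against 17.1% of all rows. Npas4 passed without Dnmt1 control replicate 1 (0.89, limma adjusted p = 0.045) and Junb without Dnmt1 CKO replicate 1 (0.55, limma adjusted p = 0.081). Without the library labelled Dnmt3a control replicate 2 the 10 genes were still higher in the Dnmt1 line, with a median of 0.35, and Egr4 was the 1 gene called (0.42; limma, adjusted p = 0.095). Markers of other cells also differed in this contrast, which averages CKO and control of each line and so takes in the CKO effects. All 8 oligodendrocyte markers were called lower in the Dnmt1 line (median -1.32), and all 8 were lower in the Dnmt1 CKO than in its controls (median -1.95). Pvalb, a marker of inhibitory neurons, was called lower (-0.52, limma adjusted p = 0.00015). Its CKO differences were -0.27 in the Dnmt1 line and 0.43 in the Dnmt3a line. Of 8 astrocyte markers Gfap was called higher (0.36, limma adjusted p = 0.0053) and Slc1a2 lower (-0.16), with a median of -0.02. Of the 10 genes listed for excitatory neurons, Snap25, which other neurons also express, was called lower (-0.13, limma adjusted p = 0.085). Pvalb, Gfap, Slc1a2 and Snap25 were chosen after their values were seen, and the part of these cells in the differences of the 10 genes was not tested.

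The spread between mice of the same group was large for these genes. The within-group SD on the log2 scale was 0.81 for Egr2, 0.66 for Arc, 0.51 for Fos and 0.47 for Npas4, and 0.19 for Egr4, against a median of 0.09 over all rows tested. Ranked among those rows, the 10 genes stood between the 86.9th percentile for Egr4 and the 98.1st for Egr2, with a median of 96.6. The highest library was 5.91 times the lowest for Egr2, 4.69 times for Arc, 3.96 times for Npas4, 3.17 times for Fos and 1.89 times for Egr4, against a median of 1.26 times over rows with no value of 0.

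**Figure D3:**
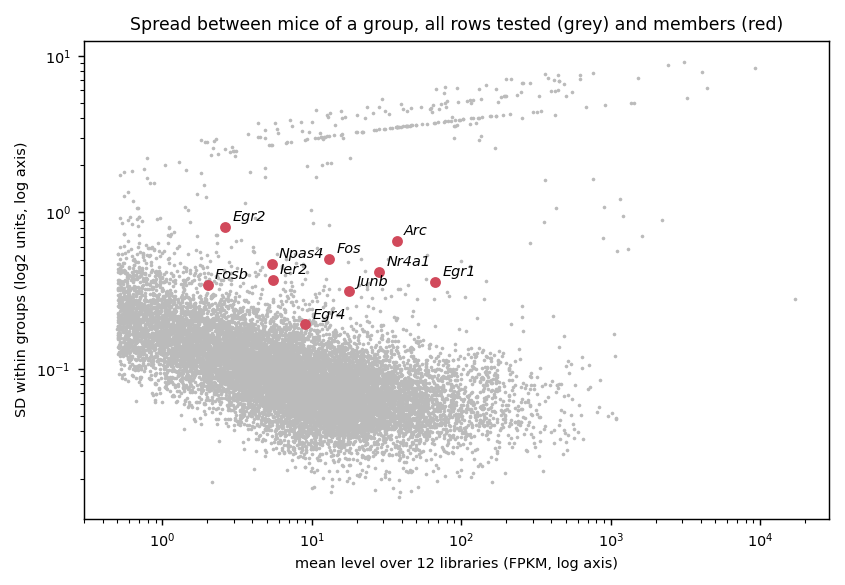
Within-group SD of log2(FPKM + 0.1) against the mean FPKM over 12 libraries, both on log axes, for all rows tested in grey and the 10 genes in red. The 10 genes lie above most rows of a like level, with Egr2 highest at 0.81 and Egr4 lowest at 0.19; the band of grey points at the top holds rows listed at 0 in some libraries and high in others.

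The same mice were high or low for nearly all 10 genes. Dnmt3a CKO replicate 2 was among the 3 lowest libraries for 10 of 10 genes and the lowest for 7. Dnmt1 control replicate 2 was among the 3 highest for 10 of 10 and the highest for 5, and Dnmt1 CKO replicates 3 and 2 were among the 3 highest for 9 and 8. Dnmt1 CKO replicate 1 was among the 3 lowest for 6. Averaged over the genes after centring each on the log2 scale, the libraries ran from -0.79 in Dnmt3a CKO replicate 2 to 0.61 in Dnmt1 control replicate 2. The Dnmt1 line held 1 low library and 2 higher ones both among the controls (-0.23, 0.61 and 0.22) and among the CKO (-0.38, 0.41 and 0.50), whereas the Dnmt3a controls lay between -0.18 and -0.09.

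**Figure D4:**
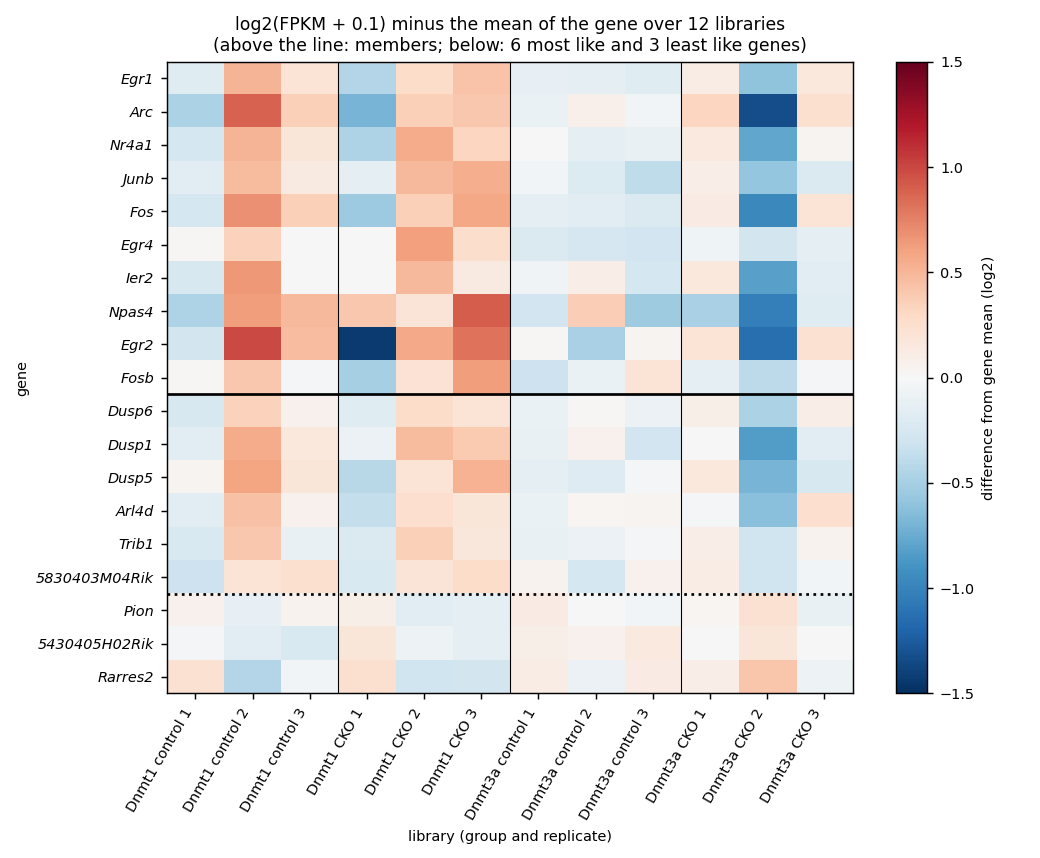
Log2(FPKM + 0.1) minus the mean of each gene over the 12 libraries (color, from -1.5 to 1.5), with genes in rows and libraries in columns by group and replicate. The column of Dnmt3a CKO replicate 2 is low and that of Dnmt1 control replicate 2 high in all 10 rows above the solid line and in the 6 genes most like them, and the 3 least like genes below the dotted line run the other way.

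Dnmt3a CKO replicate 2, the lowest library, also had the highest summed levels of 5 marker lists, which is given here as measured. Its choroid plexus list summed to 418 FPKM, where the 12 libraries began at 3.01, and its inhibitory neuron list to 478 FPKM, where they began at 379. Its astrocyte list summed to 848 FPKM, its microglia list to 121 FPKM and its oligodendrocyte list to 2884 FPKM. No marker of these lists was listed at 0 in every library, and the excitatory neuron list of this library lay within the range of the others. In Dnmt1 control replicate 2, the highest for 5 genes, the striatal neuron list had its lowest sum, 169 FPKM, in a range up to 342. The blood list had its highest sum there, 28.1 FPKM, where the 12 libraries began at 6.20. Averaged instead on the centred log2 scale, the blood list was highest in Dnmt3a CKO replicate 2 (1.40), against 0.51 in Dnmt1 control replicate 2. The part of these differences in tissue composition was not tested.

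Correlations with Fos over the 12 mice were positive for all 9 other genes. On the log2 scale Pearson's r was 0.99 for Egr1, 0.96 for Arc, 0.95 for Nr4a1 and 0.93 for Egr2, with permutation p-values adjusted over the 9 pairs of 3e-05, 3e-05, 3e-05 and 9e-05, and Spearman's rho was 0.99, 0.97, 0.94 and 0.95. The unadjusted p of 1e-05 reached by Egr1, Arc and Nr4a1 is the smallest that 100000 permutations can give. For Junb, Ier2 and Fosb r was 0.87, 0.81 and 0.79 and rho 0.78, 0.75 and 0.70, with adjusted permutation p-values for r of 0.00041, 0.0024 and 0.0034.

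Npas4 and Egr4 followed Fos least. Their r was 0.69 and 0.65, with adjusted permutation p-values of 0.015 and 0.022, and their rho was 0.69 and 0.58, with adjusted permutation p-values of 0.019 and 0.053. Without the 2 mice farthest from the median of Fos, Dnmt1 control replicate 2 and Dnmt3a CKO replicate 2, r fell to 0.42 for Npas4, 0.50 for Ier2 and 0.54 for Egr4, so these relations rest in part on those mice. For the other 6 genes it was at least 0.72, and 0.996 for Egr1. With 1 mouse left out at a time, a choice made after these values were seen, Npas4 lost significance without Dnmt3a CKO replicate 2 (r = 0.52, adjusted permutation p = 0.10) and Egr4 without Dnmt1 control replicate 2 (r = 0.58, adjusted permutation p = 0.062). Without the library labelled Dnmt3a control replicate 2, r was between 0.65 and 0.99 for the 9 genes and all passed.

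The relation was also computed within each line, since the lines may differ in batch. Among the 6 libraries of the Dnmt1 line r with Fos was at least 0.59 and among the 6 of the Dnmt3a line at least 0.50, with Fosb the lowest there, and after group means were removed over all 12 it was at least 0.68. Without Dnmt3a control replicate 2 the Dnmt3a line has 5 libraries, too few for a correlation of its own. Over all 45 pairs of the 10 genes r was positive, with a median of 0.77 and a range from 0.44 for Egr2 with Npas4 to 0.99 for Fos with Egr1. Within the Dnmt3a line 44 of 45 pairs were positive, and Fosb with Egr4 stood at -0.04. All genes of a mouse come from the same library and share its depth and scaling.

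**Figure D5:**
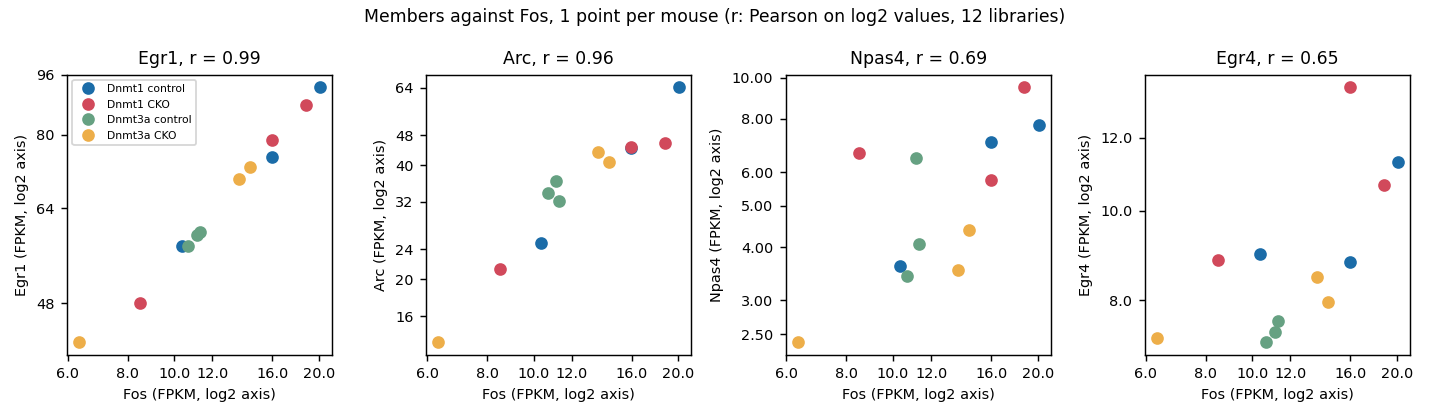
Level of Egr1, Arc, Npas4 and Egr4 against that of Fos, in FPKM on log2 axes, with 1 point per mouse colored by group. Egr1 and Arc follow Fos closely through all 4 groups (r = 0.99 and 0.96), while Npas4 and Egr4 scatter more (r = 0.69 and 0.65).

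Among the 14105 tested rows that are none of the 10 genes, 8 had r of at least 0.8 with the mean of the 10 over the 12 libraries, or 0.0567%, 59 had r of at least 0.7, or 0.418%, and the median over these rows was -0.04. The 6 most like were Dusp6 (r = 0.96), Dusp1 (0.95), Dusp5 (0.93), Arl4d (0.91), Trib1 (0.88) and 5830403M04Rik (0.83). The leading 3 encode phosphatases that switch off MAP kinases and are themselves induced by MAP kinase signaling. Dusp1 was lowest in Dnmt3a CKO replicate 2 at 6.51 FPKM and highest in Dnmt1 control replicate 2 at 17.3 FPKM, and Dusp6 had the same extremes at 16.9 and 29.7 FPKM. The 3 least like were Rarres2 (r = -0.95), which encodes the secreted chemoattractant chemerin, 5430405H02Rik (-0.85) and Pion (-0.84). Rarres2 was highest in Dnmt3a CKO replicate 2 at 5.71 FPKM and lowest in Dnmt1 control replicate 2 at 3.12 FPKM.

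Other genes of the same response were described by lists. Of 30 other immediate early transcription factors 28 were tested, and none was called in either line, with 1 at an unadjusted p under 0.05 in each line, below the shares of 15% and 7.35% over all rows, and medians of 0.03 and 0.06 on the log2 scale. The largest differences were those of Maff (0.43 and 0.41), a small Maf factor, Cebpd (0.33 in the Dnmt1 line) and Btg2 (-0.34 in the Dnmt3a line), an antiproliferative factor. In this list 6 genes had r of at least 0.7 with the mean of the 10 genes, namely Bhlhe40, Nab2, Klf10, Fosl2, Btg2 and Csrnp1, while 5 had r below 0 and the median r was 0.41. These 6, like the names given for r in the next lists, were chosen after their values were seen.

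Of 32 activity-regulated effectors 31 were tested and none was called in either line, with 6 at an unadjusted p under 0.05 in the Dnmt1 line, near the 15% of all rows, and 1 in the Dnmt3a line. The largest differences were -0.49 and -0.29 for Inhba, the activin subunit, and 0.39 and 0.26 for Cdkn1a, the cell cycle inhibitor p21. Here 7 genes reached r of 0.7, namely Plk2, Dnajb5, Arl4d, Gadd45b, Trib1, Cyr61 and Sik1, and the median r was 0.15. Of 11 MAP kinase phosphatases and Sprouty-type inhibitors none was called, with 1 at an unadjusted p under 0.05 in the Dnmt1 line and 0 in the Dnmt3a line; Dusp2 differed by 0.23 and 0.25, Spred1 by -0.21 in the Dnmt1 line and Dusp4 by -0.25 in the Dnmt3a line, and Dusp6, Dusp1 and Dusp5 were the 3 with r of at least 0.7.

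The upstream kinases, receptors, transcription factors and coactivators of the response, 34 in all, held 0 genes with r of at least 0.7, and their median r was 0.13, against -0.04 over the rows that are none of the 10 genes. In the Dnmt1 line 1 of 34 was called, where 3.15% of all rows were. This was Mkl1, a coactivator of the serum response factor, higher in the Dnmt1 CKO by 0.25 (SE 0.044, limma adjusted p = 0.066, and 0.037 to 0.23 over the alternatives). The call was lost in 8 of 16 alternatives, among them the stricter false discovery rate of 5%. In the Dnmt3a line 0 of 34 were called. At an unadjusted p under 0.05 were 2 of 34 in the Dnmt1 line and 3 of 34 in the Dnmt3a line, where 15% and 7.35% of all rows were. The largest of the rest were Rps6ka3 (-0.19 in the Dnmt1 line), a kinase of CREB, and Grin2b (-0.24) and Crebbp (-0.22) in the Dnmt3a line.

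Stress can also induce several of these genes, so 14 genes of the heat shock and glucocorticoid response were listed. Fkbp5, a glucocorticoid-induced cochaperone, was higher in the Dnmt1 CKO by 0.69 on the log2 scale (SE 0.11; limma, adjusted p = 0.039), as was Sult1a1, a sulfotransferase, by 0.69 (SE 0.12; limma, adjusted p = 0.054). Both calls were lost in several alternatives, with limma adjusted p-values up to 0.16 and 0.21, among them the one with no filter on low values and the one without Dnmt1 control replicate 2 (0.16 and 0.18). In the Dnmt3a line their differences of 0.46 and 0.40 were not called, nor was any of the 14. In the Dnmt1 line 2 of 14 were thus called, against 3.15% of all rows. Of the 14, 7 were higher and 7 lower in the CKO, from -0.35 to 0.69 on the log2 scale, with a median of 0.0057. There 8 of 14 had an unadjusted p under 0.05, against 15% of all rows, and 5 of 14 did not overlap between CKO and control, against 20.8%. In the Dnmt3a line 1 of 14 had such a p, against 7.35% of all rows, and 1 of 14 did not overlap, against 12.8%. None of the 14 had r of at least 0.7 with the mean of the 10 genes, with Fkbp5 at -0.03 and Sult1a1 at 0.14.

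Without the library labelled Dnmt3a control replicate 2, no gene of these 5 lists was called in the Dnmt3a line. An unadjusted p under 0.05 was then found for 2 of 28 transcription factors, 4 of 31 effectors, 1 of 11 phosphatases and inhibitors, 2 of 34 upstream genes and 3 of 14 stress genes, against 6.89% of all rows.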

How the data were processed

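Poly(A) RNA from 12 cortices had been sequenced on an Illumina HiSeq instrument. The authors aligned reads to mm10 with TopHat and made the deposited FPKM values, 1 row per gene or symbol, with Cufflinks. Tool versions and any scaling between libraries were not given in the sources used here. FPKM values are not counts and the read number behind each is unknown, so no counting interval was computed. Of 23850 rows deposited, 302 exact duplicates were removed, and the 14115 rows averaging 0.5 FPKM or more were tested on log2(FPKM + 0.1), a scale that understates changes of low genes. CKO and control were compared within a line by limma 3.58.1, run in R 4.3.3 (mean-variance trend, two-sided, Benjamini-Hochberg adjustment over all rows, 10% false discovery rate). The interaction and line contrasts used all 12 libraries. The line contrast, the correlations with single mice left out and the lists without 1 library were added after the data were seen. Correlations used 100000 permutations in Python 3.11.15 with numpy 2.4.6 and scipy 1.17.1, and the steps were tested on simulated data.

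The limma p-values measure the spread between the mice of a group, which the labels describe as biological replicates. For the correlations with Fos, all 12 libraries were permuted without regard to group or line. Differences between groups and lines therefore also enter those p-values. Replicate numbers were not taken to pair the samples. Over all rows tested, deviations from group means of same-numbered libraries correlated between -0.08 and 0.04. Rows that vary most weigh most in this value, so it cannot decide whether the 10 genes were paired. The 10 genes and all lists were chosen with earlier results of these data known, the lists from general knowledge. Besides the 10, the genes named were Dnmt1, Dnmt3a and Olig1, list genes called in either line or with the 2 largest differences in each, and the 6 most and 3 least like the mean of the 10. Some cell type markers called between the lines were also named. Olig1, whose locus carries cre, differed by -1.19 (limma, adjusted p = 0.0043) in the Dnmt1 line and -0.49 (limma, adjusted p = 0.66) in the Dnmt3a line. Promoter sequences are from RefSeq and gene positions from GENCODE. Alternatives covered the pseudocount, the filter, the variance trend, rescaling of libraries, a replicate block, a joint model and leaving out each mouse. A stricter false discovery rate of 5% was also counted among them.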

Additional observations from a re-analysis of the deposited data

How the results depend on the processing

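No alternative called any of the 10 genes in the Dnmt1 line, the Dnmt3a line or the interaction, and the lowest limma adjusted p over the alternatives was 0.48, 0.50 and 0.49. The rows called in the background moved more. In the Dnmt1 line they ran from 162 with a replicate block to 609 in 1 model of all 12 libraries (444 in the text). In the Dnmt3a line they ran from 1 to 20 (2 in the text). Between the lines they ran from 545 at a false discovery rate of 5% to 1130 with rescaled libraries (872 in the text). Since replicate numbers were not taken to pair the samples, the replicate block is only an alternative. It left 0, 0 and 0 of the 10 genes called and Egr4 called between the lines (0.42). For the correlations with Fos, a pseudocount of 1, rescaling of the libraries and removal of the group means each left all 9 genes positive. The adjusted permutation p for Pearson's r was under 0.05 in each setting. With group means removed, the values within a group are tied to each other, so that permutation p may be too small. Leaving out single mice left all 9 positive, and 2 of 108 such correlations lost significance, Npas4 (0.52) without Dnmt3a CKO replicate 2 and Egr4 (0.58) without Dnmt1 control replicate 2. Between the lines, 0 genes were called with no filter on low values, and from 1 to 2 with single mice left out.

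Signs of differences that were not called changed often. With rescaled libraries the Dnmt1-line difference was 0.0038 for Fosb and 0.021 for Nr4a1, with quantile normalization 0.0014 and 0.018, and with a pseudocount of 1 the interaction of Arc was -0.0056. With 1 mouse left out at a time, log2 differences in the Dnmt1 line ran from -0.39 to 0.21 for Fos, -0.28 to 0.29 for Fosb, -0.016 to 0.36 for Junb, -0.26 to 0.18 for Egr1, -0.83 to 0.30 for Egr2, -0.60 to 0.12 for Arc, -0.050 to 0.49 for Npas4, -0.21 to 0.30 for Nr4a1 and -0.12 to 0.33 for Ier2. In the Dnmt3a line they ran from -0.25 to 0.34 for Fos, -0.24 to 0.018 for Fosb, -0.19 to 0.15 for Junb, -0.099 to 0.28 for Egr1, -0.32 to 0.36 for Egr2, -0.53 to 0.30 for Arc, -0.29 to 0.17 for Nr4a1 and -0.41 to 0.068 for Ier2. For the interaction they ran from -0.47 to 0.25 for Fos, -0.16 to 0.40 for Fosb, -0.0090 to 0.38 for Junb, -0.37 to 0.14 for Egr1, -0.77 to 0.39 for Egr2, -0.081 to 0.23 for Egr4, -0.53 to 0.36 for Arc and -0.17 to 0.42 for Nr4a1. The cause of these changes was not tested. An arm left with 2 mice was assumed to vary like the others. The unknown number of reads and 3 mice per group limit all of these values.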
